A study of Mus musculus with 24 samples.

Results

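Sterol and fatty acid synthesis genes were followed in mouse embryo fibroblasts of the BALB/3T3 line, clone A31 (strain BALB/c), kept for 24 h beneath metal powder. The set was a fixed list of 35 genes, found by symbol or older alias among the 30774 gene symbols of the array: 18 of the sterol pathway, 5 regulators, 4 of cholesterol transport and export, and 8 of fatty acid synthesis and desaturation. RNA was hybridised to 24 Illumina bead arrays for mouse, 6 in each of 4 groups: pure iron powder at 3.25 mg/ml, pure manganese powder at 0.5 mg/ml, a powder of the alloy Fe-35Mn at 5 mg/ml, and control without metal. Powders sat in tissue culture inserts above the cell layer, and the 3 doses differ. The medium held foetal bovine serum, which carries lipoprotein cholesterol, and all cells came from 1 clonal line. The labels call the 6 replicates of a group technical, so the spread behind each p-value may be technical only.

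Cells make cholesterol from acetyl-CoA through mevalonate, farnesyl diphosphate, squalene and lanosterol. Transcription of these enzymes is driven mainly by SREBP-2, and that of fatty acid synthesis and desaturation enzymes also by SREBP-1. The SREBP proteins are held in the endoplasmic reticulum by SCAP and INSIG when sterols are plentiful and are cut free in the Golgi when sterols fall. Excess cholesterol leaves cells through the ABC transporters Abca1 and Abcg1, whose transcription follows oxysterols through LXR.

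Of the 35 genes, 33 had at least 1 probe on the array, and 59 probes were found in all. Hmgcs1 and Fdft1 were not analysed here. Abca1, Abcg1 and Acaca, the last encoding acetyl-CoA carboxylase, each had a single probe that no array measured above background, so export through the ABC transporters has no value. The remaining 30 genes were tested among 13401 genes. Of these 30, 28 were above background on all 24 arrays. Idi1, the isopentenyl diphosphate isomerase, was above background on 6 iron, 0 manganese, 2 alloy and 6 control arrays. Tm7sf2, a sterol reductase, was above background on 5 iron, 0 manganese, 0 alloy and 4 control arrays. Both entered the test mainly through iron and control arrays, and counts are therefore also given without them.

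The arrays differed as follows. Array medians of probe intensity ran from 61.6 to 75.3, and the number of arrays limits the precision. Probes above background made up 42.1% to 43.4% on iron arrays, 39.3% to 40.6% on manganese arrays, 36.9% to 41.2% on alloy arrays and 41.3% to 42.5% on control arrays. The 6 alloy arrays stood apart from each other: on the log2 scale the median SD of the 30 members was 0.157 with the alloy, 0.0870 with manganese and 0.0704 in control. On the first principal component of all genes, with 75.6% of the variance, alloy arrays ran from 9.50 in replicate 5 to 48.6 in replicate 3. Fibroblast markers were present, with 9 of 11 above the filter, while Col1a1 and Lum were above background on no array. Summed intensity of these 9 markers was 31626.5 to 37766.8 with iron, 21195.8 to 23637.3 with manganese, 18850.5 to 26669.7 with the alloy and 31593.9 to 33928.2 in control. Of the adipocyte markers, those of a fat-storing cell, only Lipe of 9 passed the filter, and Adipoq, Cd36, Fabp4, Plin1 and Pparg were above background on no array. Lyz2 was the macrophage marker measured of 5, Cdh5 and Tek were the endothelial markers of 4, and Cdh1 and Krt8 the epithelial markers of 4. Of the fibroblast markers 9 of 9 were lower with manganese, as were 31.6% of all genes tested, and 7 of 9 with the alloy, as were 25.9% of all genes; their part in the results was not tested. In such bulk RNA, fewer cells of a type and less RNA per cell cannot be told apart.

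Promoter sequence is shown for a few of the genes that moved together, those with the largest falls. Windows from 250 bases before to 50 bases after each annotated start were available from RefSeq, assembly GRCm38.p6, for 26 of the 35 genes, in 34 windows. The 180 bases before the start are printed 5′ to 3′ for the 4 sterol pathway members with the largest manganese fall that have a window, and for Elovl6, with CCAAT boxes on either strand (CCAAT or ATTGG) in capitals. Mvd lies at chr8:122443423-122443602 on the minus strand and Acat2 at chr17:12960726-12960905 on the minus strand. Nsdhl lies at chrX:72918341-72918520 on the plus strand, Hsd17b7 at chr1:169969206-169969385 on the minus strand and Elovl6 at chr3:129532206-129532385 on the plus strand.
Mvd: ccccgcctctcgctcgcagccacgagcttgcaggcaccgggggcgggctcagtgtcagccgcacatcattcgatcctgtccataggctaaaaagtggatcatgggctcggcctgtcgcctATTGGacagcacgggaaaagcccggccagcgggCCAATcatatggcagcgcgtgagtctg
Acat2: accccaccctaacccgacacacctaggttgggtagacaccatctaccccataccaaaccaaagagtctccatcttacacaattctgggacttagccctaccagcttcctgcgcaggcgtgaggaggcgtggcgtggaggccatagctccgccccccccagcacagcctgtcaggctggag
Nsdhl: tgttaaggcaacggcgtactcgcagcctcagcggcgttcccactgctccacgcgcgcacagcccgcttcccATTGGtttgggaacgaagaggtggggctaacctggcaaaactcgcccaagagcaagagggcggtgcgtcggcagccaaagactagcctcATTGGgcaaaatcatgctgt
Hsd17b7: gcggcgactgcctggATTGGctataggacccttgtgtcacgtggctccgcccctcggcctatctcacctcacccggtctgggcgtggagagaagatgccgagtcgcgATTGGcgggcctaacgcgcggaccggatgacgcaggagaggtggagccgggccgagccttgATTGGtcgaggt
Elovl6: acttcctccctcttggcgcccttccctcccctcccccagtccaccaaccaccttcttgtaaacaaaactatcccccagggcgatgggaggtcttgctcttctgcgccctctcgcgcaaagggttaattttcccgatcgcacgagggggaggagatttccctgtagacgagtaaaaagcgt

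Mvd and Nsdhl held 2 CCAAT boxes each in these stretches, Hsd17b7 held 3, and Acat2 and Elovl6 held 0. CCAAT is the core of the NF-Y binding site, and NF-Y is a known partner of SREBP at sterol gene promoters. Over the whole windows and both strands, CCAAT occurred in 61.8% of the 34 windows, against 37.4% of all 32851 promoter windows in the table. GGGCGG, the GC box that Sp1 binds, occurred in 76.5% of the 34 windows, against 35.7% of all windows. CACGTG, an E-box, occurred in 20.6%, against 7.15% of all windows. The strict sterol regulatory element TCACNCCAC was found in 1 of the 34 windows, that of Hmgcs1 (2.94%, against 1.24% of all windows). These are matches of letters in a fixed window, some genes have more than 1 window, and a base may lie in more than 1 motif. The 34 windows belong to listed genes whether or not they fell, among them Srebf1, Scap and Fasn. Abca1, Acaca and Hmgcs1, which have no value, are also included. Fdps, Sqle, Stard4, Scd1, Scd2 and Fads1 fell with manganese and have no window.

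Sterol synthesis genes were lower with manganese. In manganese against control, 26 of the 30 members fell, 2 rose (Npc1 and Srebf1) and 2 were not called (Scap and Fasn), by limma with Benjamini-Hochberg adjustment over all genes at 0.05. Without Idi1 and Tm7sf2, 24 of 28 fell and 2 rose. The background was high: 61.3% of all 13401 genes were called in either direction with 29.7% higher and 31.6% lower. The median log2 difference of the 30 members was -0.84, against 0.00 over all genes tested; in the authors' normalized probe table it was -0.46, and the difference of Mvd, -2.03 here, was -0.87 there. At least 2-fold falls were called for 11 of the 30 members, and for 1.54% of all genes. In 26 members (24 without Idi1 and Tm7sf2) every manganese array lay below every control array, as did 21.6% of all genes.

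All 16 measured sterol pathway genes fell with manganese, 9 of them at least 2-fold, and their median log2 difference was -1.14. Without Idi1 and Tm7sf2 it was 14 of 14, with a median of -1.28. In all 16, manganese and control arrays did not overlap, and without Idi1 and Tm7sf2 this held for 14 of 14.

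**Figure D1:**
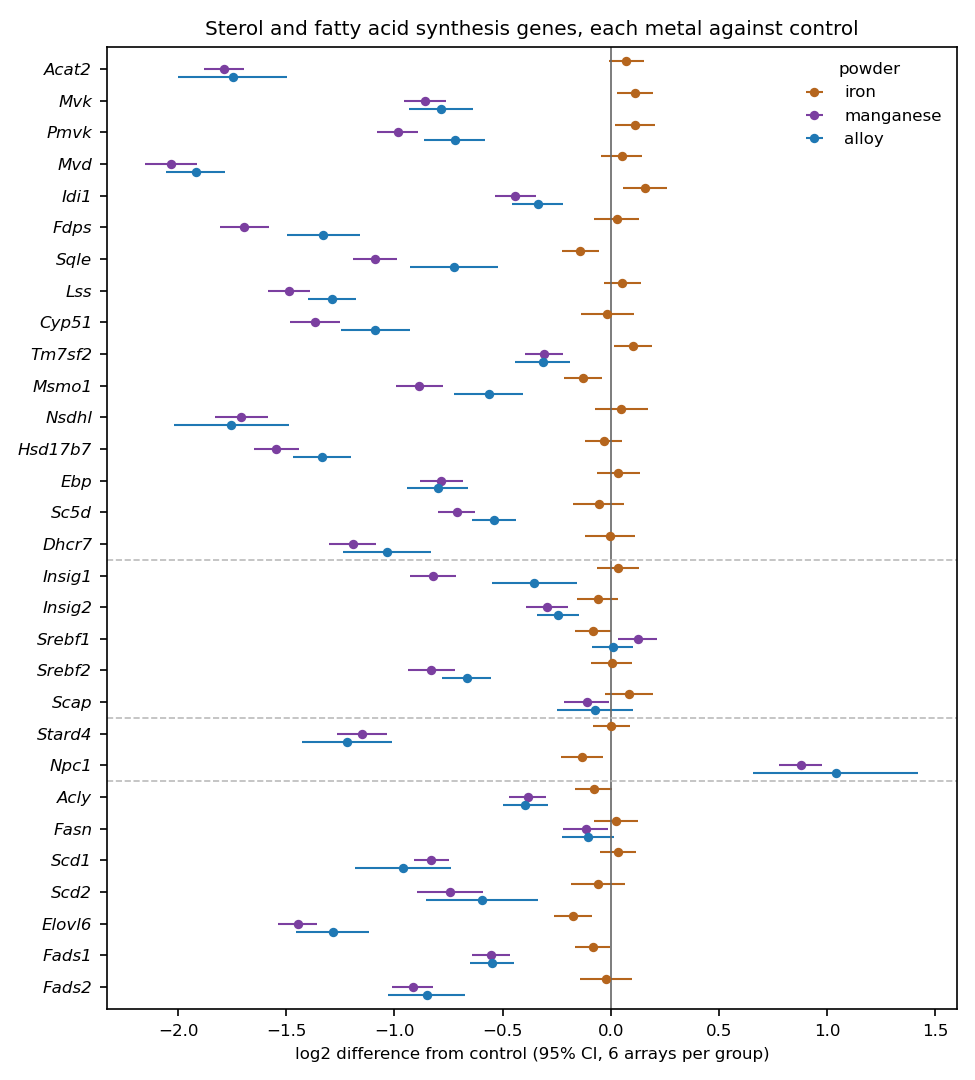
Log2 differences from control of the 30 measured genes (horizontal axis; points, with 95% confidence intervals as lines, from limma on 6 arrays per group) for iron, manganese and the alloy; dashed lines part the sterol pathway, the regulators, cholesterol transport, and fatty acid synthesis and desaturation. All 16 sterol pathway genes lie left of 0 with manganese and with the alloy, Npc1 lies right of 0 with both, and iron points stay near 0; Idi1 and Tm7sf2 were above background on 0 manganese arrays, so their points there are not fold changes.

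The early steps turn acetyl-CoA into isoprenoid units. Acat2, the cytosolic thiolase that joins acetyl-CoA units and is named here by the array's own symbol, had a log2 level of 10.10, 10.16 and 10.31 (lowest, median and highest of 6) on manganese arrays, against 11.89, 11.97 and 12.04 on control arrays. The groups lay far apart, and Acat2 fell by 1.79 (SE 0.0439, adjusted p = 1.02e-17 by limma), 3.46-fold lower with manganese. Mvd, the decarboxylase that yields isopentenyl diphosphate, had the largest fall of the 30 members. Its levels were 7.71, 7.79 and 8.10 on manganese arrays, against 9.79, 9.85 and 9.99 on control arrays. Mvd fell by 2.03 (SE 0.0566, adjusted p = 6.54e-17), 4.09-fold lower with manganese. Between them in the pathway, mevalonate kinase Mvk fell by 0.86 and phosphomevalonate kinase Pmvk fell by 0.99. Idi1, which follows Mvd, had mean levels of 6.34 on manganese arrays, none of them above background, against 6.78 on control arrays. It was at least 1.22-fold lower with manganese (adjusted p = 3.41e-08), a bound set by the lowest signal above background.

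The middle steps build squalene and close the sterol ring. Fdps, farnesyl diphosphate synthase, had levels of 11.38, 11.46 and 11.67 on manganese arrays, against 13.03, 13.20 and 13.27 on control arrays. It fell by 1.69 (SE 0.0535, adjusted p = 4.76e-16), 3.23-fold lower with manganese, and its second probe fell by 1.06. Sqle, the squalene epoxidase and a known control point of the pathway, fell by 1.09 (adjusted p = 8.63e-14): its manganese arrays spanned 10.90 to 11.15, against 12.10 to 12.28 in control. Lss, the lanosterol synthase that makes the ring, had levels of 9.64, 9.79 and 9.89 on manganese arrays, against 11.17, 11.27 and 11.35 on control arrays. It fell by 1.49 (SE 0.0459, adjusted p = 3.23e-16), 2.80-fold lower with manganese.

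The late steps convert lanosterol to cholesterol. The demethylation enzymes Cyp51, Msmo1, Nsdhl and Hsd17b7 fell, with log2 differences of -1.37, -0.88, -1.71 and -1.55 in that order. A second, much dimmer Hsd17b7 probe, above background on 11 arrays, fell by 0.36 with manganese and by 0.43 with the alloy. Nsdhl has 4 probes above the filter, with differences of -1.71, -1.62, -1.58 and -1.22 with manganese, so each probe showed the fall. The sterol isomerase Ebp fell by 0.78, the desaturase Sc5d fell by 0.71, and the reductase Dhcr7, which removes a double bond of the sterol ring at the end of the pathway, fell by 1.19. Tm7sf2 had mean levels of 6.14 on manganese arrays and 6.45 on control arrays (adjusted p = 2.27e-06). With 0 manganese arrays above background and a bound below 1, no fold is given for it.

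**Figure D2:**
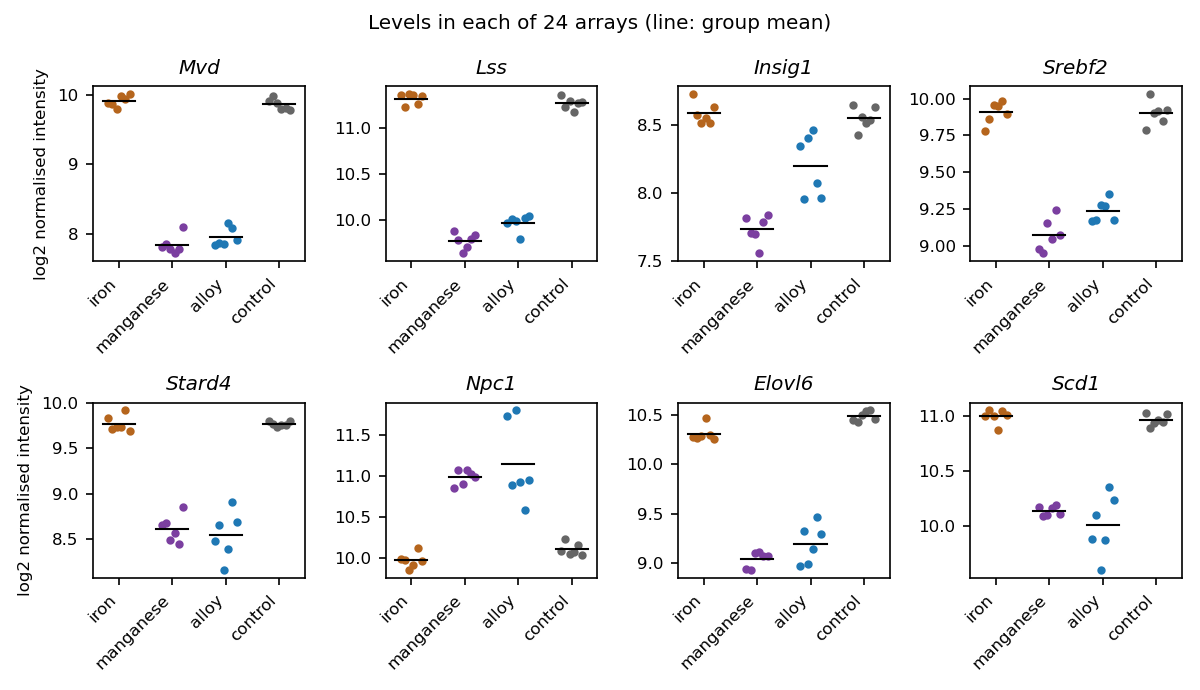
Log2 normalised intensity (vertical axis, scaled per gene) of 8 genes on each of the 24 arrays, with points for arrays and a line for the group mean, in the order iron, manganese, alloy and control. Manganese and alloy arrays of Mvd, Lss, Srebf2, Stard4, Elovl6 and Scd1 lie below every control array and those of Npc1 above; for Insig1 1 alloy array reaches into the control range.

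The regulators split. Srebf2, which encodes SREBP-2, had levels of 8.95, 9.06 and 9.24 on manganese arrays, against 9.79, 9.91 and 10.03 on control arrays, and fell by 0.83 (SE 0.0521, adjusted p = 2.55e-11). Its second probe fell by 0.61. Insig1, the retention protein whose own gene is an SREBP target, had levels of 7.55, 7.74 and 7.84 on manganese arrays, against 8.43, 8.55 and 8.64 on control arrays. It fell by 0.82 (SE 0.0510, adjusted p = 2.22e-11), and its other probes differed by -0.85 and -1.07. Insig2, the related retention protein, fell by 0.29 (adjusted p = 1.21e-05), with levels of 8.76, 8.82 and 8.98 on manganese arrays, against 9.08, 9.13 and 9.22 on control arrays.

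Srebf1, which encodes SREBP-1, went the other way by a small amount. Its levels were 7.15, 7.31 and 7.35 on manganese arrays, against 7.07, 7.14 and 7.26 on control arrays. The groups overlapped, with 5 of 6 manganese arrays above every control array. Srebf1 rose by 0.12 (SE 0.0434, adjusted p = 0.0173), and with median scaling in place of quantile normalisation the difference was 0.05 and not called (adjusted p = 0.358). Scap, the escort of SREBP, had levels of 8.23, 8.31 and 8.36 on manganese arrays, against 8.29, 8.42 and 8.56 on control arrays. Its difference was -0.11 (adjusted p = 0.0558), while a second, dimmer Scap probe was higher by 0.32 (adjusted p = 6.46e-06 over all probes), so Scap has no settled direction.

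The 2 measured genes of cholesterol movement within the cell went in opposite directions. Stard4, a carrier of sterol through the cytosol and an SREBP target, had levels of 8.45, 8.61 and 8.85 on manganese arrays, against 9.74, 9.76 and 9.80 on control arrays. It fell by 1.15 (SE 0.0548, adjusted p = 3.22e-13), 2.22-fold lower with manganese. Npc1, the membrane protein that lets cholesterol out of lysosomes, had levels of 10.86, 11.01 and 11.08 on manganese arrays, against 10.04, 10.08 and 10.24 on control arrays. It rose by 0.88 (SE 0.0479, adjusted p = 2.63e-12), 1.84-fold higher with manganese. Other Npc1 probes rose by 0.57 and 0.51, and the dimmest of the 4 above the filter differed by -0.01 (adjusted p = 0.834).

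Genes of fatty acid synthesis and desaturation were also lower. With manganese 6 of 7 measured genes fell, their median log2 difference was -0.74, and 1 of 7 fell at least 2-fold. That gene was Elovl6, the elongase that makes stearate from palmitate: it had levels of 8.93, 9.07 and 9.11 on manganese arrays, against 10.43, 10.48 and 10.54 on control arrays. Elovl6 fell by 1.45 (SE 0.0433, adjusted p = 2.04e-16), 2.73-fold lower with manganese. Desaturation follows elongation. Scd1, a desaturase that places the double bond of oleate, had levels of 10.09, 10.14 and 10.19 on manganese arrays, against 10.89, 10.95 and 11.03 on control arrays, and fell by 0.83 (SE 0.0386, adjusted p = 2.18e-13). Scd2, its close relative, fell by 0.74 (adjusted p = 2e-08).

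Fads2 and Fads1 desaturate polyunsaturated fatty acids in turn. Fads2 had levels of 8.21, 8.31 and 8.37 on manganese arrays, against 9.12, 9.22 and 9.33 on control arrays, and fell by 0.92 (SE 0.0447, adjusted p = 4.77e-13). Fads1 had levels of 12.77, 12.88 and 12.96 on manganese arrays, against 13.38, 13.41 and 13.48 on control arrays, and fell by 0.55 (SE 0.0417, adjusted p = 4.17e-10). A much dimmer second Fads1 probe differed by -0.01 (adjusted p = 0.904). Acly, which makes cytosolic acetyl-CoA from citrate, fell by 0.38 (adjusted p = 8.1e-08). Fasn, the fatty acid synthase itself, had levels of 6.65, 6.76 and 6.91 on manganese arrays, against 6.76, 6.88 and 7.01 on control arrays. The groups overlapped and the difference of -0.11 was not called (adjusted p = 0.052, 95% interval -0.22 to -0.01), while with median scaling it was -0.17 and called (adjusted p = 0.00763).

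Sterol and fatty acid genes were also lower with the alloy. In alloy against control, 26 of 30 members fell, 1 rose (Npc1) and 3 were not called (Srebf1, Scap and Fasn). Without Idi1 and Tm7sf2, 24 of 28 fell. Of all genes tested, 49.3% were called in either direction with 23.4% higher and 25.9% lower (3135 and 3474 genes, against 1524 and 3804 with median scaling). The median log2 difference of the 30 members was -0.72 (-0.43 in the authors' normalized probe table), against -0.01 over all genes, and 10 of them, with 2.04% of all genes, fell at least 2-fold. In 25 members (23 without Idi1 and Tm7sf2) every alloy array lay below every control array, as did 17.6% of all genes. With alloy replicates 2, 5 and 6 alone, an alternative chosen after seeing the data, 26 members fell and 1 rose, with a median of -0.70. The alloy and manganese comparisons share their control arrays.

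All 16 sterol pathway genes fell with the alloy, 8 of them at least 2-fold, with a median of -0.92; without Idi1 and Tm7sf2 it was 14 of 14, with a median of -1.06. Mvd had levels of 7.83, 7.89 and 8.15 on alloy arrays and fell by 1.92 (SE 0.0643, adjusted p = 1.42e-10), 3.78-fold lower with the alloy. Nsdhl had levels of 7.42, 7.79 and 8.31 on alloy arrays, against 9.40, 9.58 and 9.81 on control arrays, and fell by 1.75 (SE 0.124, adjusted p = 8.52e-08). Acat2 had levels of 9.74, 10.28 and 10.61 on alloy arrays and fell by 1.75 (SE 0.117, adjusted p = 5.45e-08). The control arrays of these genes lay above every alloy array. Log2 differences were -1.33 for Fdps, -1.33 for Hsd17b7, -1.29 for Lss, -1.09 for Cyp51 and -1.03 for Dhcr7. They were -0.80 for Ebp, -0.78 for Mvk, -0.72 for Pmvk, -0.72 for Sqle, -0.56 for Msmo1 and -0.54 for Sc5d. Idi1 had mean levels of 6.44 on alloy arrays and 6.78 on control arrays (adjusted p = 0.000149, 2 alloy arrays above background), and Tm7sf2 had 6.13 on alloy arrays and 6.45 on control arrays (adjusted p = 0.000506, 0 alloy arrays above background).

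Among the regulators 3 of 5 fell with the alloy. Srebf2 had levels of 9.16, 9.22 and 9.35 on alloy arrays and fell by 0.67 (SE 0.0520, adjusted p = 2.21e-07). Insig1 had levels of 7.96, 8.21 and 8.46 on alloy arrays and fell by 0.35 (SE 0.0911, adjusted p = 0.00507). Its 6 alloy arrays divided into replicates 2, 5 and 6 at 7.96 to 8.07 and replicates 1, 3 and 4 at 8.34 to 8.46, the last array inside the control range. Other Insig1 probes differed by -0.82 and -0.68 with the alloy, a larger fall than that of the probe with the highest mean. Insig2 fell by 0.25 (adjusted p = 0.000434), Srebf1 differed by 0.01 (adjusted p = 0.88) and Scap by -0.07 (adjusted p = 0.51). The second, dimmer Scap probe was higher with the alloy by 0.17 (adjusted p = 0.0264 by limma over all probes).

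Stard4 and Npc1 had opposite directions with the alloy. Stard4 had levels of 8.16, 8.57 and 8.91 on alloy arrays and fell by 1.22 (SE 0.0976, adjusted p = 2.75e-07). Npc1 had levels of 10.59, 10.94 and 11.80 on alloy arrays and rose by 1.04 (SE 0.178, adjusted p = 0.000238), 2.06-fold higher. Replicates 1 and 3, at 11.74 and 11.80, stood above the other alloy arrays, and every alloy array lay above every control array. Other Npc1 probes rose by 0.97 and 0.69 with the alloy. The dimmest Npc1 probe above the filter differed by 0.00 (adjusted p = 0.970 by limma over all probes). Of the fatty acid genes 6 of 7 fell, with a median of -0.59. Elovl6 fell by 1.29 (SE 0.0788, adjusted p = 2.26e-08), with levels of 8.97, 9.22 and 9.46 on alloy arrays. Scd1 fell by 0.96 (SE 0.104, adjusted p = 4.51e-06), with levels of 9.60, 9.99 and 10.35 on alloy arrays, lowest in replicate 3. Log2 differences were -0.85 for Fads2, -0.59 for Scd2, -0.55 for Fads1 and -0.39 for Acly, all called, while Fasn differed by -0.10 (adjusted p = 0.138).

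**Figure D3:**
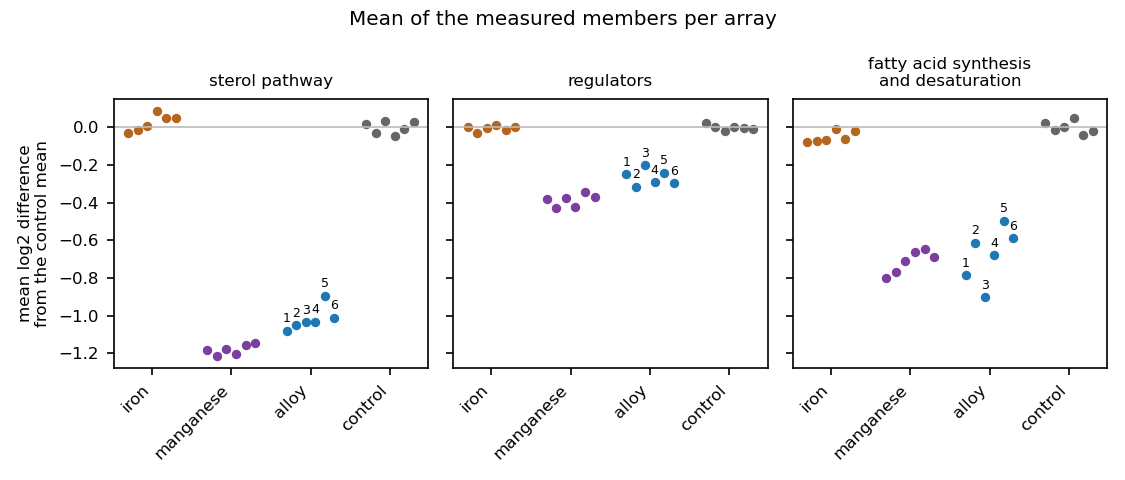
Mean log2 difference from the control mean over the measured genes of the sterol pathway (16), the regulators (5) and fatty acid synthesis and desaturation (7), one point per array, with alloy points numbered by replicate. Sterol means, which include Idi1 and Tm7sf2, span -1.21 to -1.15 on manganese arrays and -1.08 to -0.89 on alloy arrays. Fatty acid means span -0.90 to -0.50 on alloy arrays, lowest in replicates 3 and 1.

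Averaged over the sterol pathway, the log2 difference from the control mean was -1.21 to -1.15 on manganese arrays, -1.08 to -0.89 on alloy arrays, -0.03 to 0.09 on iron arrays and -0.05 to 0.03 on control arrays. This sterol mean includes Idi1 and Tm7sf2, which were above background on 0 manganese arrays, and was not computed without them. The alloy and manganese arrays did not overlap in it, and both lay below control. It was taken with quantile normalisation only, and no such share over all genes was computed. Averaged over the fatty acid genes it was -0.80 to -0.65 on manganese arrays, -0.90 to -0.50 on alloy arrays, -0.08 to -0.01 on iron arrays and -0.04 to 0.05 on control arrays. Here alloy replicates spread on either side of the manganese arrays.

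The direct comparison of the alloy with manganese, at doses that differ, found 4 members higher with the alloy and 0 lower by limma. At an unadjusted p under 0.05, 10 were higher and 1 (Srebf1) was lower, as were 8.98% and 11.3% of all genes. Of all genes 4.16% were called in either direction, 1.92% higher and 2.24% lower. The members' median log2 difference was 0.11, against -0.01 over all genes. The 4 were Insig1 by 0.47 (SE 0.0942, adjusted p = 0.0170), Fdps by 0.37 (SE 0.0836, adjusted p = 0.0290), Msmo1 by 0.32 (SE 0.0765, adjusted p = 0.0349) and Cyp51 by 0.28 (SE 0.0719, adjusted p = 0.0439). With replicate number as a block, Msmo1 was not called (adjusted p = 0.0990 by limma). Fdps levels were 11.64, 11.86 and 12.13 on alloy arrays, against 11.38, 11.46 and 11.67 on manganese arrays. Msmo1 levels were 11.55, 11.67 and 11.99 on alloy arrays, against 11.19, 11.40 and 11.50 on manganese arrays. Cyp51 levels were 9.21, 9.39 and 9.60 on alloy arrays, against 8.96, 9.12 and 9.22 on manganese arrays. Insig1 and Msmo1 did not overlap between the groups, nor did Sqle and Sc5d, which were not called (adjusted p = 0.0545 and 0.0589); 1.45% of all genes had every alloy array above every manganese array. The count of members called was 0 with median scaling and without normalisation. It was 0 to 2 when any 1 of manganese replicates 1 to 6 was left out (0 without replicate 4). Other Insig1 probes were higher by 0.26 and 0.17 and not called. The second Fdps probe was higher by 0.17 and not called (adjusted p = 0.182 by limma over all probes).

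Some uncalled genes had 95% intervals of the difference between alloy and manganese that did not span 0. They lay above 0 for Sqle (0.15 to 0.58), Pmvk (0.11 to 0.42) and Hsd17b7 (0.06 to 0.36). The same held for Lss (0.07 to 0.32), Sc5d (0.07 to 0.28) and Srebf2 (0.04 to 0.29). That of Srebf1 lay below 0 (-0.21 to -0.02). Intervals of the remaining uncalled genes spanned 0, among them those that follow. Mvd differed by 0.11 (95% interval -0.05 to 0.28), Mvk by 0.08 (-0.09 to 0.24) and Ebp by -0.02 (-0.14 to 0.11). Nsdhl differed by -0.05 (-0.29 to 0.20) and Acat2 by 0.04 (-0.21 to 0.29). Fads1 differed by 0.01 (-0.11 to 0.12) and Npc1 by 0.16 (-0.22 to 0.54), the widest interval of those named here.

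**Figure D4:**
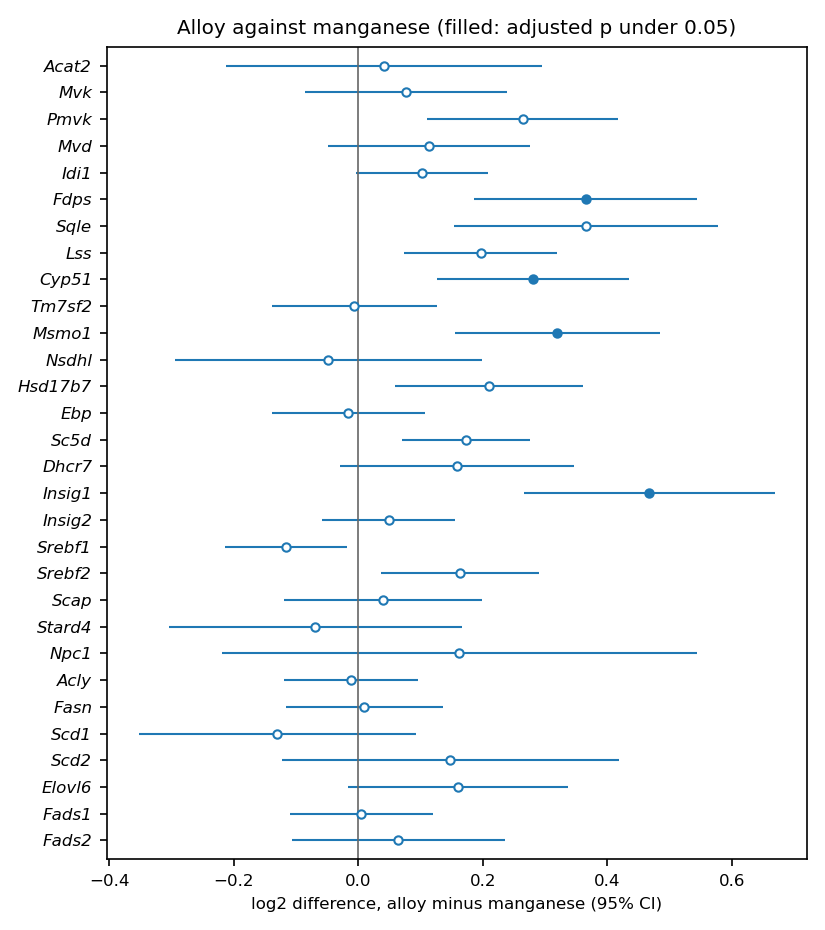
Log2 difference, alloy minus manganese, of the 30 measured genes (points, with 95% confidence intervals as lines, 6 arrays per group); filled points passed an adjusted p of 0.05. Insig1, Fdps, Msmo1 and Cyp51 are filled and lie at 0.28 to 0.47, and the open points lie between -0.13 and 0.37.

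Iron left these genes close to control. In iron against control 0 of 30 members rose and 1 fell, Elovl6, where 2.34% of all genes were called in either direction, 0.761% higher and 1.58% lower. At an unadjusted p under 0.05, 4 members were higher and 5 lower, as were 9.07% and 9.09% of all genes. The median log2 difference was 0.00, as over all genes, and the 95% intervals of the 30 members lay between -0.26 and 0.26. Elovl6 had levels of 10.25, 10.28 and 10.46 on iron arrays, against 10.43, 10.48 and 10.54 on control arrays. The groups overlapped through iron replicate 4, and the fall of 0.18 (SE 0.0416, adjusted p = 0.0314) was not called when any of 8 of the 12 arrays was left out. Mvd differed by 0.05 (adjusted p = 0.61), Srebf2 by 0.00 (adjusted p = 0.977), Sqle by -0.14 (adjusted p = 0.0718) and Npc1 by -0.13 (adjusted p = 0.136).

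Manganese against iron, which uses no control array and compares doses that differ, had 28 members lower and 2 higher (Npc1 and Srebf1), where 60.7% of all genes were called, 29.5% higher and 31.2% lower. Without Idi1 and Tm7sf2, 26 of 28 were lower. The median was -0.86 (-0.46 in the authors' normalized probe table), and 11 members, with 1.49% of all genes, were lower at least 2-fold. Mvd had levels of 7.71, 7.79 and 8.10 on manganese arrays, against 9.80, 9.91 and 10.02 on iron arrays, a fall of 2.08 (SE 0.0574, adjusted p = 7.21e-17). Npc1 was higher with manganese by 1.01 (adjusted p = 7.05e-13). Srebf1 was higher with manganese by 0.21 (adjusted p = 0.000207), with every manganese array above every iron array. Fasn was lower by 0.14 (adjusted p = 0.0241) and Scap by 0.20 (adjusted p = 0.000671), the last with its second probe in disagreement.

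Other genes of these pathways were taken from lists of related functions; the counts below stand beside 29.7% of all genes higher and 31.6% lower with manganese, and 23.4% higher and 25.9% lower with the alloy. Of 15 measured genes of fatty acid synthesis, activation and glycerolipid entry, 9 fell and 3 rose with manganese, and 8 fell and 2 rose with the alloy. Acss2, which makes acetyl-CoA from acetate, differed by -1.38 with manganese and by -1.52 with the alloy, with every array of both groups below every control array. Slc25a1, the mitochondrial citrate carrier, differed by -0.92 with manganese and by -1.06 with the alloy. Lpin1, a phosphatidate phosphatase, differed by -0.83 with manganese and by -0.57 with the alloy. Acsl3, an acyl-CoA synthetase, differed by -0.81 with manganese and by -0.71 with the alloy. These 4 genes fell with both powders. All 15 were uncalled with iron, where 2.34% of all genes were called.

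Of 8 measured genes of sterol uptake, movement and storage, 2 rose and 3 fell with manganese, and 1 rose and 2 fell with the alloy, near or below the 61.3% and 49.3% of all genes called. Vldlr, a lipoprotein receptor, had levels of 11.34, 11.36 and 11.51 on manganese arrays and 10.97, 11.39 and 11.63 on alloy arrays, against 9.47, 9.54 and 9.66 on control arrays. It rose by 1.84 with manganese (SE 0.0426, adjusted p = 4.52e-18) and by 1.81 with the alloy (SE 0.0936, adjusted p = 5.88e-09). Lipa, the lysosomal lipase that frees cholesterol from its esters, fell by 0.61 with manganese and fell by 0.35 with the alloy. Lrp1 fell by 0.39 with manganese and fell by 0.36 with the alloy, and Osbp fell by 0.32 with manganese and differed by -0.15 with the alloy (adjusted p = 0.12).

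Of 6 measured genes of SREBP processing and sterol-dependent degradation, 2 rose and 1 fell with manganese, and 1 rose and 1 fell with the alloy, again below those shares of all genes. Erlin1, part of a membrane complex of the degradation machinery, rose by 0.80 with manganese and by 0.72 with the alloy. Mbtps1, the Golgi protease that makes the first cut in SREBP, fell by 0.26 with manganese and fell by 0.29 with the alloy. Erlin2 rose by 0.16 with manganese and differed by -0.03 with the alloy (adjusted p = 0.733). Of 4 measured genes of the LXR and oxysterol list, 2 rose and 1 fell with each of manganese and the alloy: Lpcat3, a phospholipid acyltransferase and LXR target, differed by -0.97 with manganese and -1.01 with the alloy. The 2 that rose, Cyp27a1 and Apoe, were dim: Cyp27a1 was above background on 4 manganese, 2 alloy and 0 control arrays, and Apoe on 6 manganese, 6 alloy and 4 control arrays. Of 4 further genes of sterol and isoprenoid synthesis, 2 fell and 1 rose with each. Nus1, a subunit of the enzyme that makes dolichol precursors, differed by -0.47 with manganese and -0.41 with the alloy, and its partner Dhdds rose by 0.16 with manganese and by 0.29 with the alloy. Cyb5r3, a reductase that passes electrons to sterol and fatty acid desaturases, differed by -0.16 and -0.26, and both falls were called. These 4 lists had 0 genes called with iron, beside 2.34% of all genes.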

How the data were processed

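RNA was hybridised to 24 Illumina mouse bead arrays. The deposited table without normalisation gives, per the file headers, linear intensity for 45281 probes. The non-normalized gene table equals the mean of the probe intensities within 0.01 for the 30760 symbols in both, and the authors' normalized values are log2. Lumi and RMA are named in the submitters' processing notes, without version or role.

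Intensities were corrected with normexp (offset 50) and quantile normalised with limma 3.58.1 in R 4.3.3. Because the files hold no detection p-values, a probe counted as above background when its log2 intensity passed the array's mode by the normal quantile with 1% beyond it times the SD estimated from values under the mode. Those passing on at least 6 arrays (20205) were kept, and the probe of highest mean stood for its gene (13401 genes, 2863 named by array symbol alone). Probe identities of the deposited tables were matched within a symbol by rank. GEO's platform annotation gave 1 gene for 34885 probes, 18 with several were left out, and 10378 kept the array's symbol. Symbols were updated through RefSeq names (GRCm38.p6).

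Each comparison was fitted on its own 2 groups (limma lmFit and eBayes, two-sided, Benjamini-Hochberg over all genes, 0.05). Log2 values are relative to quantile normalised arrays. Values of several probes of a gene come from the same fit over all probes kept. No batch is labelled, and no 2 arrays were identical. The scripts were tested on simulated data. All members are named. Array levels are given for the 4 members of smallest adjusted p per role in manganese against control and for those that differ in direction or between metals, and other lists name up to 4 genes by the same order. Promoter genes and a few further members shown were chosen after their values were seen. The members, lists and tests were chosen with earlier results of these data known. Alternatives were other deposited tables, scalings, filters, probe choices, a 1.5-fold minimum, a shared fit, the replicate number as a block, and each array left out.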

Additional observations from a re-analysis of the deposited data

Results flagged for a closer look

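In 120 sets of 6 arrays (30 genes in 4 groups), 10 had a lowest or highest array whose gap to the nearest other array, as a share of the range, passed Dixon's 95% limit for 6 samples; chance alone gives about 1 in 20. Values are log2 normalised intensity. Iron replicate 4 was highest for Cyp51 (10.69, the others 10.35 to 10.47) and for Elovl6 (10.46, the others 10.25 to 10.30), and lowest for Scd1 (10.88, the others 11.00 to 11.05). Iron replicate 1 was lowest for Fdps (13.03, the others 13.21 to 13.29). Manganese replicate 6 was highest for Mvd (8.10, the others 7.71 to 7.85). Manganese replicate 1 was lowest for Srebf1 (7.15, the others 7.28 to 7.35), and manganese replicate 4 highest for Tm7sf2 (6.27, the others 6.09 to 6.14). Alloy replicate 4 was lowest for Lss (9.80, the others 9.97 to 10.04) and for Scap (7.99, the others 8.36 to 8.48). Control replicate 4 was lowest for Dhcr7 (9.04, the others 9.28 to 9.40).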

How the results depend on the processing

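Across alternatives other than a 1.5-fold minimum, 26 to 28 members were lower with manganese and 25 or 26 with the alloy; with that minimum it was 21 and 18, since Idi1, Tm7sf2, Insig2, Acly and Fads1 fell less with both powders and Msmo1, Sc5d and Insig1 with the alloy. Fasn and Scap, near the threshold with manganese, were called lower under several alternatives (Fasn in 11 and Scap in 7). Leaving out 1 array, 26 to 28 members were lower with manganese and 26 with the alloy, with medians of -0.87 to -0.83 and -0.75 to -0.68. The authors' normalized probe table compressed the medians to -0.46 (manganese against control), -0.43 (alloy against control) and -0.46 (manganese against iron). The alloy median was -0.85 with median scaling and -0.89 without normalisation, which itself shifted all genes by -0.13. Higher and lower calls over all genes, 3135 and 3474 for the alloy, became 1524 and 3804 with median scaling and 1070 and 3781 without normalisation. For manganese they were 3012 and 4857 without normalisation (3983 and 4232 with quantile normalisation), and for iron 7 and 137 without normalisation (102 and 212 with it), with 24 of 141 calls higher under median scaling. Members higher with manganese numbered 1 under the 1.5-fold minimum, median scaling and no normalisation, and 1 against iron under the 1.5-fold minimum. Scap turned to 0.10 (adjusted p = 0.0356) against control, and to 0.047 against iron, as the mean of its probes. Members higher in alloy against manganese numbered 0 under the 1.5-fold minimum, median scaling and no normalisation, 7 in the authors' gene table, 9 with alloy replicates 2, 5 and 6 alone (added after seeing the data), 10 in the fit of all 24 arrays and 0 to 4 with 1 array left out; over all genes, 557 calls became 61, 32, 17, 1393 and 2010 under the minimum, the 2 scalings, those alloy arrays and that fit. The count of members lower with iron was 0 under the 1.5-fold minimum, the fit of all arrays, median scaling, no normalisation and offset 16, and 0 to 1 with 1 array left out, where 0 to 1 were higher; over all genes 314 calls became 6, 32, 141, 144 and 202. With the 1.5-fold minimum 1617 genes passed with manganese and 1795 with the alloy. The cause of these changes was not tested. Same-numbered arrays correlated between -0.20 and 0.35 in their deviations. In manganese against control 4 of 6 correlated best with their own number, and in iron against control 3. The count was 2 in manganese against iron and 1 in each other comparison. No label ties a number across groups, and whether same-numbered arrays share a factor was not tested. With replicate number as a block, 26 members fell with manganese and 26 with the alloy. In that fit 3 were higher in alloy against manganese (Msmo1 adjusted p = 0.0990 by limma). Calls over all genes were 466 for iron (314 without the block) and 351 for alloy against manganese (557 without it). Dim probes (Idi1, Tm7sf2, Fasn) limit their fold changes.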
